A study of Mus musculus with 21 samples.

Results

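The T cell recruiting chemokines and receptors were 6 genes taken by symbol from both tumour tables: the ligands Cxcl9, Cxcl10, Cxcl16 and Ccl5 and the receptors Cxcr3 and Cxcr6. All 6 were among the 19241 genes listed in each table, and all 6 passed the filter on low values in every comparison. RNA was sequenced from mammary tumours of MMTV-PyMT mice, in which the MMTV promoter drives the polyoma middle T oncogene in mammary epithelium, so that every group carried the transgene. Mice were sedentary or physically active, and tumours came from week 12 or week 18, which gave 4 groups of 3 libraries, labelled as biological replicates (12 tumours of 21 libraries in the series). The labels call the sedentary mice SED and give no age other than the week. They do not say whether several tumours of a mouse were pooled. The comparisons asked whether the members' RNA differed between active and sedentary mice, and whether ligand and receptor levels went together from library to library.

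Chemokines are small secreted proteins that bind receptors of the G protein-coupled class on leukocytes and direct their movement. CXCL9 and CXCL10 are induced by interferon gamma in macrophages, dendritic cells and other cells, and both bind CXCR3, which is carried by activated T cells and NK cells. CXCL16 is made as a membrane-bound protein that is cut loose by the proteases ADAM10 and ADAM17, and it binds CXCR6, found on effector and tissue-resident T cells. CCL5 is made by activated T cells and NK cells, among others, and attracts T cells and other leukocytes. Because whole tumours were sequenced, fewer cells of a type and less RNA per cell cannot be told apart.

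The members lie at 5 places in the genome (GRCm38, the assembly also called mm10, which is the build of the submitters' processing notes). Cxcl9 lies at chr5:92321347-92328079 and Cxcl10 at chr5:92346638-92348889, both on the minus strand, with 18558 bases between them. Cxcl16 lies at chr11:70453983-70459984 and Ccl5 at chr11:83525778-83530518, both on the minus strand. Cxcr3 lies on the minus strand at chrX:101731535-101734269, and Cxcr6 on the plus strand at chr9:123806475-123811760. Each is annotated as protein-coding. Cxcl10, Cxcl16 and Cxcr6 overlap genes on the other strand, Art3, Zmynd15 and Fyco1. The libraries were stranded per the labels' protocols, but the sources used here do not state whether counting used the strand. Reads in those overlaps therefore cannot be told apart. Art3 was at 45.96 to 2738 normalized counts over the 12 tumours, Zmynd15 at 170 to 478 and Fyco1 at 1466 to 3438. Those are counts of whole genes, and how many of the reads fell in the overlaps is not known. Values of Cxcl10, Cxcl16 and Cxcr6 are uncertain by that unknown share.

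The upstream windows of the neighbouring genes Cxcl9 and Cxcl10 are shown because these are the ligands of CXCR3 and both are known interferon gamma targets. Each window holds the 250 bases before the start site in RefSeq, on GRCm38.p6, printed 5′ to 3′ on the gene's minus strand. Cxcl9 is at chr5:92328080-92328329 and Cxcl10 at chr5:92348890-92349139. Capitals mark matches to the interferon-stimulated response element (ISRE, written GAAA, any 2 bases, GAAA) and to the NF-kappaB consensus, searched on both strands.
Cxcl9: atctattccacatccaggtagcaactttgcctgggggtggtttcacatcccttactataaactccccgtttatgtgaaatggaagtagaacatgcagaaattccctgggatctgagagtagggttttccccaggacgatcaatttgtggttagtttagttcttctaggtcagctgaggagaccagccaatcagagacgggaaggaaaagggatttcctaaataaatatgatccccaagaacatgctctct
Cxcl10: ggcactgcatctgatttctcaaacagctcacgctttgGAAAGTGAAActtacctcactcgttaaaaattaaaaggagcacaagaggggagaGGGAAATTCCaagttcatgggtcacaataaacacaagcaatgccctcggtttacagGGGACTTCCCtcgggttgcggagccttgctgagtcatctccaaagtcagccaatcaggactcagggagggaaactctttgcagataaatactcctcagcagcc

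The Cxcl10 window held 1 ISRE match, GAAAGTGAAA, from -213 to -204 relative to the start site. It also held 2 matches to the NF-kappaB consensus, GGGAAATTCC from -159 to -150 and GGGACTTCCC from -103 to -94. Over the 32851 promoters of the table, 2.98% held an ISRE match and 3.90% an NF-kappaB consensus match in windows of the same length. The NF-kappaB consensus was taken up after looser letters (GGG, any 5 bases, CC) had matched 45.8% of all promoters, including those of Cxcl9, Cxcl10 and Cxcr3, and it lies within those letters. Its matches in Cxcl10 are therefore the outcome of a second search. The gamma-activated site letters (TTC, any 3 bases, GAA) matched in 7.02% of all promoters and in none of the 4 members with an entry (Cxcl9, Cxcl10, Cxcr3 and Cxcr6). Promoters of Ccl5 and Cxcl16 were not analysed here. A match is a description of letters, and nothing was measured at these sequences.

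Recovered depth was 20838963 to 28973775 reads per tumour. Active week 12 replicate 3 stood apart from the other 11 libraries. Its 14 T cell markers, none of them at 0 in any tumour, summed to 18045 normalized counts against 256 to 625 elsewhere. Its B cell markers summed to 24151 against 62.5 to 194, its lymph node stroma markers (with Ccl21a, Ccl19 and Cr2) to 11907 against 23.0 to 406, and its adipocyte markers to 224071 against 381 to 55691. NK and cytotoxic markers (1612 against 41.6 to 489), dendritic cell markers (2248 against 205 to 740) and endothelium markers (14761 against 2071 to 5518) were also highest there. Its mammary epithelium markers were lowest, at 54791 against 68149 to 134433, and its macrophage markers lay within 8562 to 17894 like all the others. Skeletal muscle markers summed to 50366 to 109398 in sedentary week 12 tumours and to 268 to 1118 in active week 12 tumours. The epithelial marker Epcam was lowest in active week 12 replicate 3, at 6300 against 15223 to 19140 in the other 11 libraries. The part of these markers in the members' values was not tested, and the week 12 differences are given with and without that library.

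Levels can be set side by side between genes only per length. In RPKM, the recovered reads per kilobase of exon scaled to the total of each library, Cxcl16 had the highest median over the 12 tumours, 18.3 (range 13.1 to 46.3), and lay above Ccl5, the next, in 11 of 12 libraries. Ccl5 had a median level of 4.67 (2.92 to 118) and lay above Cxcl10 in 12 of 12. Cxcl10 followed at 2.88 (1.03 to 4.84) and lay above Cxcl9 in 11 of 12, and Cxcl9 at 1.55 (0.391 to 8.72) lay above Cxcr3 in 11 of 12. The receptors were lowest and could not be ordered: Cxcr3 had a median level of 0.669 (0.280 to 4.41) and Cxcr6 one of 0.554 (0.322 to 6.70), with Cxcr3 higher in 5 of 12 libraries.

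At week 12 the 3 active tumours had a higher average of Cxcl9, Cxcl10, Ccl5, Cxcr3 and Cxcr6 than the sedentary tumours, but none of these differences passed the test. Cxcl9 was at 82.8, 106 and 117 normalized counts in the sedentary libraries and at 267, 108 and 626 in the active ones. Active replicate 2 lay inside the sedentary range, and the other two lay above it. The difference of log2(value + 1), active minus sedentary, was 1.37 (95% interval -0.26 to 3.00; limma adjusted p = 0.970), and 0.75 without active replicate 3.

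Cxcl10 was at 109, 91.7 and 106 in the sedentary libraries of week 12 and at 168, 113 and 161 in the active ones. The groups did not overlap, although active replicate 2 lay close to the highest sedentary value. The log2 difference was 0.50 (interval -0.02 to 1.03; limma adjusted p = 0.970), and 0.43 without active replicate 3. This was the member with the smallest unadjusted limma p at week 12, 0.0566, and 4.48% of all genes had a p as small or smaller.

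Cxcl16, the ligand of CXCR6, was at 1239, 974 and 1188 normalized counts in sedentary and at 1064, 1097 and 1191 in active tumours of week 12. All 6 values lay close together and the groups overlapped. The log2 difference was -0.01 (interval -0.42 to 0.39; limma adjusted p = 0.996), the narrowest interval of the 6 members, and -0.06 without active replicate 3.

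Ccl5 was at 39.6, 53.7 and 81.4 in sedentary and at 101, 65.9 and 1553 in active tumours of week 12. A single library set the size of the difference: active replicate 3 was 14.6 times the highest of the other 11 tumours. The log2 difference was 1.95 (interval -1.18 to 5.09; limma adjusted p = 0.970), and 0.54 without that library.

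The receptors moved with the same library. Cxcr3 was at 14.4, 31.6 and 25.3 in sedentary and at 61.0, 16.5 and 190 in active tumours of week 12, so the groups overlapped. The log2 difference was 1.32 (interval -0.95 to 3.59; limma adjusted p = 0.970), and 0.48 without active replicate 3. Cxcr6 was at 26.4, 26.3 and 23.4 in sedentary and at 42.8, 26.8 and 321 in active tumours. The active values lay above all sedentary ones, but active replicate 2 exceeded the highest by less than 1 normalized count. The log2 difference of Cxcr6 was 1.47 (interval -0.88 to 3.83; limma adjusted p = 0.970), and 0.41 without active replicate 3.

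**Figure D1:**
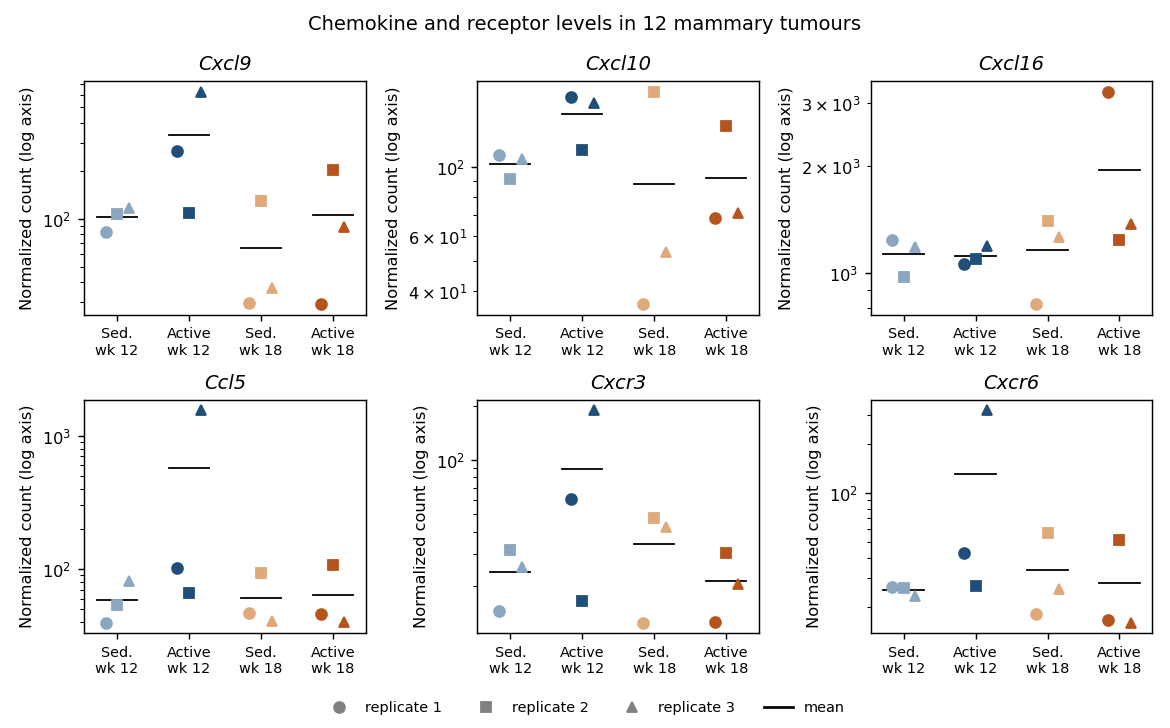
Normalized counts (log axis, scaled separately in each panel) of the 6 genes in every tumour library; symbols give the replicate number, colours the 4 groups and black bars the mean of 3 libraries. Active week 12 replicate 3 holds the highest value of Cxcl9 (626), Ccl5 (1553), Cxcr3 (190) and Cxcr6 (321), whereas the highest Cxcl16 (3222) is in active week 18 replicate 1.

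Across all genes at week 12, limma called 99 of 19162, which is 0.517%, 98 of them lower in active tumours, and called 0 of the 6 members. Cxcl10 and Cxcr6, 2 of 6, had every active library above every sedentary one, against 4.36% of all genes with that order, and 0 of 6 had every active library below (4.78% of all genes). The median log2 difference of the 6 members was 1.35 with all libraries and 0.46 without active replicate 3, beside 0.01 and 0.00 over all genes tested. In the authors' deposited table for week 12, no member passed either: Cxcl9 had a log2 fold change of 1.70 (p = 0.00959, adjusted p = 0.423), and Ccl5 one of 3.29 with p = 1.0.

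At week 18 the members did not separate the active from the sedentary tumours: 0 of 6 had groups that did not overlap, against 6.03% of all genes higher and 7.57% lower in every active library. limma called 0 of 18939 genes (0.00%), with 1131 (5.97%) at an unadjusted p under 0.05. edgeR also called 0 and DESeq2 52 (0.276%), with no member among them. Cxcl9 was at 29.7, 130 and 36.7 in sedentary and at 29.1, 201 and 88.2 in active tumours. Cxcl10 was at 36.4, 174 and 53.5 in sedentary and at 68.7, 136 and 71.3 in active tumours. For both genes replicate 2 was highest in each group and replicate 1 lowest. The log2 differences were 0.62 for Cxcl9 (interval -1.60 to 2.83) and 0.32 for Cxcl10 (-1.29 to 1.92).

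Cxcl16 was at 820, 1398 and 1263 in sedentary and at 3222, 1241 and 1374 in active tumours of week 18. Active replicate 1 held the highest value of the 12 tumours, and the other two active libraries lay within the sedentary range. The log2 difference was 0.64 (interval -0.46 to 1.75; limma adjusted p = 0.824), and 0.21 without that library. That library was also the one with the most Ccl20, the ligand of CCR6, at 229 normalized counts against 0 to 5.3 in the other tumours.

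Ccl5 at week 18 was at 46.9, 93.1 and 40.6 in sedentary and at 45.8, 107 and 40.1 in active tumours. The 2 groups repeated nearly the same values in the same order of replicate numbers. The log2 difference was 0.05 (interval -1.20 to 1.30; limma adjusted p = 0.987). Cxcr3 was at 12.4, 47.6 and 42.6 in sedentary and at 12.5, 30.6 and 20.5 in active tumours, with a log2 difference of -0.55 (-2.05 to 0.96). Cxcr6 was at 18.2, 56.7 and 25.8 in sedentary and at 16.6, 51.6 and 16.04 in active tumours, with a log2 difference of -0.30 (-1.85 to 1.25). Replicate 2 was the highest library for 6 of 6 members in the sedentary group and for 5 of 6 in the active group, Cxcl16 being the exception.

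**Figure D2:**
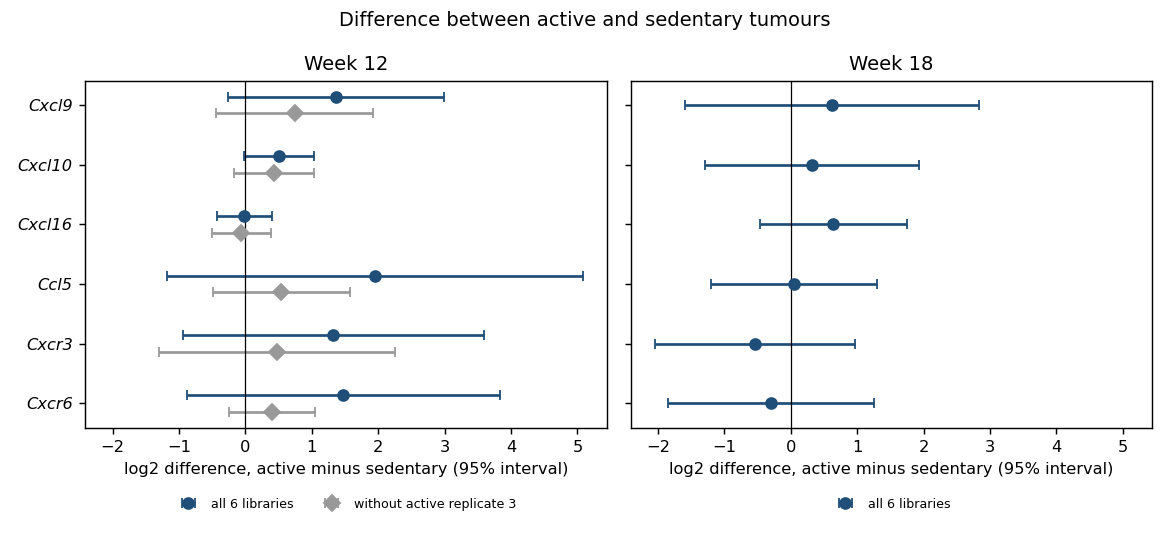
Difference of mean log2(value + 1), active minus sedentary, with limma 95% intervals, at week 12 (left) and week 18 (right); grey diamonds leave out active replicate 3 of week 12. Every interval includes 0, and at week 12 the Ccl5 difference goes from 1.95 to 0.54 without that library.

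The activity difference itself was compared between the weeks in a model of all 4 groups. limma called 2 of 19241 genes (0.0104%) and 0 of 6 members. The week 18 difference minus the week 12 difference was -0.75 for Cxcl9, -0.19 for Cxcl10, 0.66 for Cxcl16, -1.91 for Ccl5, -1.87 for Cxcr3 and -1.78 for Cxcr6, with limma adjusted p of 0.770 or more. Without active week 12 replicate 3 the values were -0.13 for Cxcl9, -0.12 for Cxcl10 and 0.70 for Cxcl16. Those of Ccl5, Cxcr3 and Cxcr6 were then -0.49, -1.02 and -0.71. Without active week 18 replicate 1 the value for Cxcl16 was 0.22.

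From week 12 to week 18, sedentary tumours gave log2 differences from -0.94 (Cxcl9) to 0.37 (Cxcr3), and 0 of 6 members had groups that did not overlap (4.34% of all genes higher, 5.95% lower). limma called 1 of 19241 genes (0.0052%) there and 0 of 6 members. In active tumours the differences, week 18 minus week 12, were -1.69 for Cxcl9, -0.73 for Cxcl10, -1.89 for Ccl5, -1.50 for Cxcr3 and -1.54 for Cxcr6, and 0.66 for Cxcl16. limma called 3 genes of 19241 (0.0156%) and 0 of 6 members, whose adjusted p ran from 0.307 to 0.440. Cxcl16 was the 1 member of 6 with every week 18 active library above every week 12 active library, an order found in 12.1% of all genes, and 0 of 6 had the opposite order (12.7%). Without active week 12 replicate 3 the differences were -1.07 for Cxcl9, -0.65 for Cxcl10 and -0.48 for Ccl5. Those of Cxcr3, Cxcr6 and Cxcl16 were then -0.65, -0.48 and 0.71. Without active week 18 replicate 1 the difference for Cxcl16 was 0.23. The comparisons of weeks share the libraries with those of activity.

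Ligand and receptor levels were then related over the 12 tumours, as log2(value + 1), in 8 relations with Benjamini-Hochberg adjustment over the 8. Cxcl9, Cxcl10 and Ccl5 went with the receptors, and Cxcl16 did not show such a relation. Pearson's r passed the threshold in 5 of 8 relations and Spearman's rho in 6 of 8. The CXCR3 ligand Cxcl9 had r = 0.783 with Cxcr3 (permutation, adjusted p = 0.00526; rho = 0.769, adjusted p = 0.0126). Cxcl10 had r = 0.586 with Cxcr3 (permutation, adjusted p = 0.0592; rho = 0.636, adjusted p = 0.0399).

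Cxcl16 and its receptor Cxcr6 had r = -0.15 (permutation, adjusted p = 0.528; rho = -0.08, adjusted p = 0.916). With Cxcr3, which it does not bind, Cxcl16 had r = -0.19 (rho = 0.02). Cxcl9 and Cxcl10 also went with Cxcr6, which is not their receptor: r was 0.828 for Cxcl9 (rho = 0.804) and 0.653 for Cxcl10 (rho = 0.867). Ccl5 had r = 0.955 with Cxcr6 (rho = 0.748) and 0.839 with Cxcr3 (rho = 0.636). Differences between these coefficients were not tested. Both coefficients of Cxcl16 turned positive without active week 18 replicate 1 (r = 0.259 with Cxcr3 and 0.203 with Cxcr6), and neither passed.

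Several of these relations rested on few libraries. Without active week 12 replicate 3, 3 of 8 passed by Pearson's r and 2 of 8 by Spearman's rho. Cxcl9 with Cxcr3 then had r = 0.602 (n = 11, permutation, adjusted p = 0.102) and Ccl5 with Cxcr3 r = 0.583 (n = 11, permutation, adjusted p = 0.102). Cxcl10 with Cxcr6 had r = 0.791 there (rho = 0.864) and Ccl5 with Cxcr6 r = 0.807 (rho = 0.673). Without the 2 libraries farthest from the median of the ligand, Cxcl9 with Cxcr3 had r = 0.504, Cxcl9 with Cxcr6 r = 0.665 and Ccl5 with Cxcr3 r = 0.603, and none of these passed over the 10 tumours left. Cxcl9 with Cxcr6 passed with any single library left out (r from 0.724 to 0.851). Without the 2 farthest libraries 3 of 8 relations passed by Pearson's r, Cxcl10 with Cxcr6 (r = 0.739), Ccl5 with Cxcr6 (r = 0.748) and Cxcl10 with Cxcr3 (r = 0.718), and 1 of 8 by rho, Cxcl10 with Cxcr6 (rho = 0.915).

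Within week 12 (6 tumours, exact permutation), 2 of 8 relations passed by Pearson's r, Cxcl9 with Cxcr3 (r = 0.974) and Ccl5 with Cxcr3 (r = 0.918), and 0 by rho. Without active replicate 3 week 12 holds 5 tumours, and no coefficient is given for them. Within week 18, 0 of 8 passed by either, although 6 of 8 coefficients were positive, with Ccl5 and Cxcr6 at r = 0.923 and Cxcl10 and Cxcr6 at r = 0.832. With each value taken as its deviation from the mean of its group, 4 of 8 relations passed by Pearson's r and 0 of 8 by rho (permutation within groups). Among the members of like kind, a family of 7 relations added after the data were seen, Cxcl9 and Cxcl10 had r = 0.851 (rho = 0.874, permutation, adjusted p = 0.00175) and r = 0.881 without active week 12 replicate 3. Cxcr3 and Cxcr6 had r = 0.886 and r = 0.718 without that library. The T cell marker sum and both receptors were highest in active week 12 replicate 3. Whether that sum went with the receptors over the other libraries, and its part in these relations, was not tested.

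**Figure D3:**
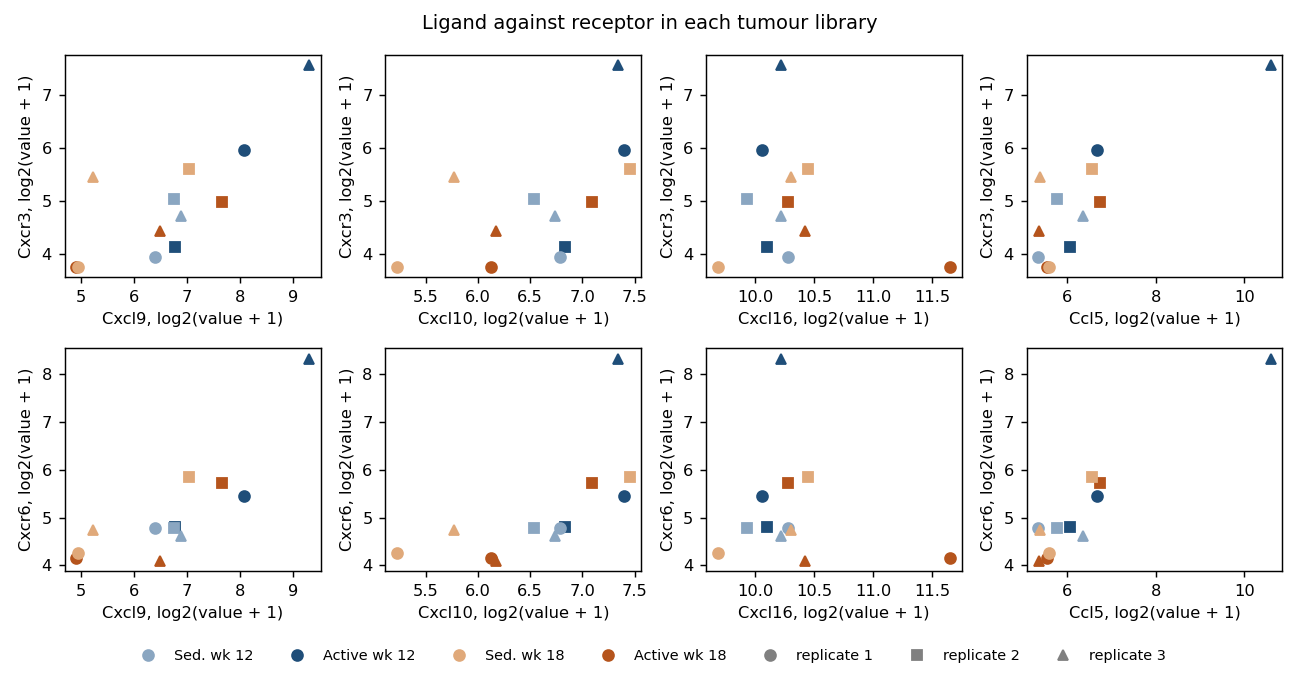
Each panel plots a ligand (horizontal axis) against Cxcr3 (top row) or Cxcr6 (bottom row) as log2(value + 1) of normalized counts; a point is 1 of 12 tumour libraries, coloured by group, with the replicate number as its shape. Active week 12 replicate 3 (dark triangle) is the top point of every panel, and active week 18 replicate 1 lies alone at the right of the Cxcl16 panels, where r is -0.19 and -0.15.

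Set against T cell markers, the receptors were lowest in active week 12 replicate 3. Per 100 normalized counts of the 14 T cell markers, that library had 1.05 counts of Cxcr3, and the other 11 had 3.44 to 14.1. It had 1.78 of Cxcr6 against 3.84 to 9.06, 8.61 of Ccl5 against 9.55 to 18.4, and 3.47 of Cxcl9 against 9.003 to 42.7. It was thus the lowest of the 12 tumours by all 4 ratios, while highest of the 12 in the level of each of the 4 genes. Its Cd3e, a chain of the T cell receptor complex, was 22.3 times the highest other value, more than the 3.11 times of Cxcr3 and the 5.67 times of Cxcr6. Per Cd3e count it was lowest of the 12 in Cxcr3, Cxcr6 and Cxcl9 but not in Ccl5, which was at 1.58 there, above sedentary week 12 replicate 2 (1.46) and active week 12 replicate 2 (1.49).

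**Figure D4:**
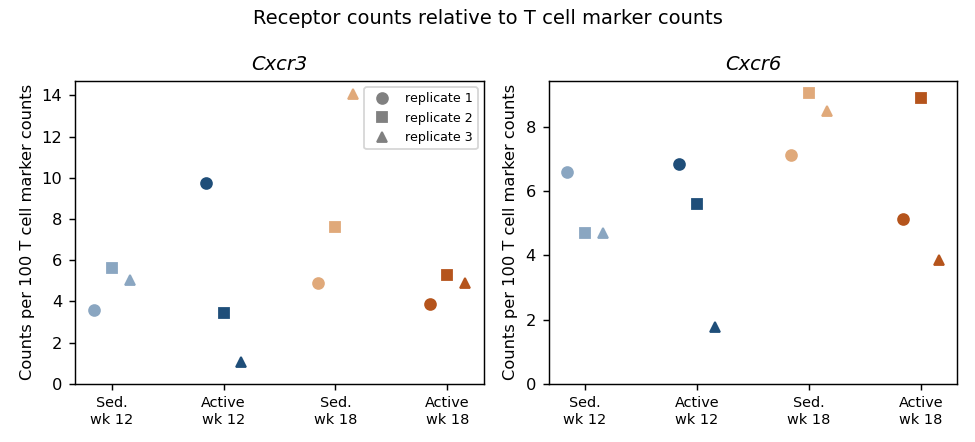
Cxcr3 (left) and Cxcr6 (right) as counts per 100 counts of 14 summed T cell markers in each tumour library, by group, with the replicate number as symbol. Active week 12 replicate 3 is lowest in both panels, at 1.05 and 1.78.

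The other genes of the pathway were read in 4 lists, none of which had a gene past the threshold in any of the 5 comparisons. Of the genes induced by interferon gamma or carrying its signal, 14 of 17 had a positive log2 difference at week 12, with a median of 0.40. Without active replicate 3 that was 5 of 17, with a median of -0.06. The smallest p-values of that list belonged to Ciita, the master regulator of MHC class II genes (log2 difference 1.14, interval -0.44 to 2.73), Socs1, an inhibitor of cytokine signalling (0.62), and Gbp3, a guanylate-binding protein (-0.43). Without active replicate 3 their log2 differences were 0.47, 0.15 and -0.50. At week 18, 14 of 17 were again positive, with a median of 0.25, and the smallest p-values belonged to Ifngr2, a chain of the receptor (0.39), Ido1, an enzyme that breaks down tryptophan (-1.89), and Gbp3 (0.86). With a library left out these ran from 0.12 to 0.59, from -3.73 to -0.41 and from -0.05 to 1.36. Ifng itself was not analysed here.

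Of the other ligands that attract T cells, 8 of 12 had a positive log2 difference at week 12 (median 0.85, and 0.04 over 13 genes without active replicate 3). Xcl1 (1.55), Ccl4 (-1.77) and Ccl22 (1.89) had the smallest p-values there. Without active replicate 3 their log2 differences were 1.46, -0.59 and 0.46. At week 18, 4 of 13 were positive, with a median of -0.29, and Ccl20 (3.45, interval -0.45 to 7.35), Ccl4 (1.01) and Ccl19 (-0.79) had the smallest p-values. Ccl20 was at 1.68 without active replicate 1, and with a library left out Ccl4 ran from 0.61 to 1.45 and Ccl19 from -1.27 to -0.34. Of the other chemokine receptors of T cells, 9 of 11 were positive at week 12 (median 1.19, and 0.13 without active replicate 3), with the smallest p-values for Ccr8 (2.31), Ccr9 (1.62) and Ccr6 (2.60), which were at 1.33, 0.24 and 0.18 without active replicate 3. At week 18 the median was -0.09, and Ccr9 (-0.97), Ccr4 (-1.02) and Cx3cr1 (0.39) led by p-value. With a library left out these ran from -1.46 to -0.69, from -1.37 to -0.44 and from 0.19 to 0.68.

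Of the listed proteases and decoy receptors of chemokines, 3 of 7 were positive at week 12 and 2 of 7 at week 18. Without active week 12 replicate 3, 4 of 7 were positive at week 12. Dpp4, a protease that trims the ends of CXCL9 and CXCL10, had a log2 difference of 0.59 at week 12 (interval -0.001 to 1.19; limma adjusted p = 0.970) and -0.75 at week 18. Ackr2 (0.95) and Ackr4 (0.46), receptors that take up chemokines without signalling through G proteins, followed at week 12, and Ackr1 (-1.69) and Adam17 (0.19) at week 18. Without active week 12 replicate 3 Dpp4 was at 0.39, Ackr2 at 0.24 and Ackr4 at -0.22, and at week 18 Dpp4 was at 0.0064 without active replicate 1. With a library left out at week 18 Ackr1 ran from -2.84 to -0.83 and Adam17 from 0.12 to 0.25.

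The genes whose log2 values were most like each member's over the 12 tumours were taken from 13638 genes with a mean of at least 50. They are given as a description, and each r shares libraries and depth with all the others. For Cxcl9 they were 9930111J21Rik1 (r = 0.967), Gm4070 (0.949) and Tgtp2 (0.938), copies of multigene families whose counts are uncertain. For Cxcl10 they were Cybb (0.901), Cited1 (0.900) and Tnfsf13b (0.899). Cybb encodes a subunit of the phagocyte oxidase. For Cxcl16 they were Mapkapk3 (0.957), Slc44a1 (0.947) and Galnt18 (0.943), and without active week 12 replicate 3 Mapkapk3 stood at 0.979. For Ccl5 they were Rasal3 (0.980), Tbc1d10c (0.975) and Klhl6 (0.969), which stood at 0.855, 0.806 and 0.751 without that library. For Cxcr3 they included Selenop (0.983, and 0.962 without it) and Cd48 (0.955, and 0.896 without it). For Cxcr6 they were Ms4a4b (0.972), Serpina3g (0.968) and Nlrc3 (0.961). Without active week 12 replicate 3 these stood at 0.880, 0.885 and 0.833.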

How the data were processed

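The authors deposited 2 tumour tables of normalized signal per gene. Beside it stood the authors' own comparison: fold as a ratio and on the log2 scale, p-value raw and adjusted, −log10 of the adjusted p, and a test statistic (a score). Those are named where quoted. The label descriptions name DEBrowser and the submitters' processing notes the build mm10; the aligner and counter were not given in the sources used here. Per the labels' protocols, tumour RNA was taken up in TRIzol and sequenced from stranded mRNA libraries. Every deposited value was a whole multiple of 1 step per column (tolerance 1e-06), so whole reads were recovered for 100% of values, and the factors equalled the median of ratios over all 12 tumours. The tables therefore share 1 scale. The number of reads counted in each library limits precision; intervals cover the spread between libraries.

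limma 3.58.1 in R 4.3.3 was fitted to log2(value + 1) of each gene whose mean reached 1 in any group compared, with Benjamini-Hochberg adjustment over the whole table and a threshold of 0.05. Differences on that scale understate changes of low genes. An exact permutation test of 3 against 3 cannot go below p = 0.1, so none is given. Correlations have 2-sided permutation p-values (100000 resamples, exact within a week). Alternatives were edgeR 4.0.16, DESeq2 1.42.0 and limma-voom on recovered reads, pseudocounts 0.1 and 8, other filters, TMM scaling, a replicate block and each library left out. The labels number the biological replicates and give no pairing of active with sedentary mice, and the main fits used none. Across genes, deviations of same-numbered active and sedentary libraries from their group means correlated at 0.164, 0.159 and 0.139 at week 18. At week 12 these correlations were -0.03, -0.10 and 0.09. Between libraries of different numbers they ran from -0.15 to 0.04 at week 18 and from -0.12 to 0.18 at week 12. At week 18 every same-numbered correlation was thus above every other one. Whether tumours were paired cannot be told from these values. Scripts were tested on simulated data.

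All 6 members were named. Of each list the genes past the threshold were named, or else the 3 smallest p-values at each week, and the 3 genes most like each member by r; some genes this rule names are not reported here. The members and lists were chosen with earlier results of these data known. Cxcl11, Ifng and Ly6g were not analysed here, and stem cell tables were not used here.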

Additional observations from a re-analysis of the deposited data

How the results depend on the processing

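No member passed the threshold in any of the 522 member tests over all settings run, where the lowest adjusted p was 0.0825; DESeq2 gave 4 of these, all of Ccl5, no adjusted p. Of the 30 member differences, 21 had the same sign in every setting, and signs turned only where a library was left out. Those ranges at week 12 were -0.12 to 0.053 for Cxcl16. At week 18 they were -0.038 to 1.33 for Cxcl9, -0.15 to 0.97 for Cxcl10, -0.38 to 0.41 for Ccl5 and -0.84 to 0.15 for Cxcr6. For the change between weeks Cxcl10 gave -0.65 to 0.46, and for sedentary tumours between weeks Cxcl16 gave -0.15 to 0.24, Ccl5 -0.35 to 0.28 and Cxcr6 -0.22 to 0.58.

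Counts of called genes moved more. At week 12 limma-voom called 56, DESeq2 208 and the replicate block 0, and 9 to 71 with a library left out. At week 18 the count was 5 with a pseudocount of 0.1, 1 with no filter, 52 with DESeq2, 0 with the replicate block and 0 to 5 with a library left out. For the change between weeks edgeR called 0, DESeq2 174 and the replicate block 69, and 0 to 23 with a library left out. Between weeks, edgeR called 0 in sedentary and 0 in active tumours and DESeq2 79 and 1681. With a library left out these were 1 to 9 and 0 to 87, and in active tumours 6 with a pseudocount of 0.1. The replicate block changed no call of a member (adjusted p 0.694 to 0.938 at week 18). The cause of these shifts was not tested.

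Of the relations, Cxcl9 with Cxcr3 had r = 0.572 within week 18, 0.504 without the 2 farthest libraries and 0.602 to 0.904 with a library left out. Cxcl9 with Cxcr6 had r = 0.933 within week 12, 0.766 within week 18 and 0.665 without the 2 farthest. Cxcl10 with Cxcr3 passed without the 2 farthest (0.718) and ran from 0.509 to 0.704 with a library left out. Cxcl10 with Cxcr6 had r = 0.702 and 0.832 within the weeks and 0.631 to 0.791 with a library left out; it missed the threshold without sedentary week 18 replicate 2 (0.637), active week 18 replicate 1 (0.631) or active week 18 replicate 3 (0.634). Ccl5 with Cxcr3 had r = 0.481 within week 18, 0.603 without the 2 farthest, 0.794 as deviations from group means and 0.583 to 0.897 with a library left out. Ccl5 with Cxcr6 had r = 0.977 and 0.923 within the weeks, which missed the threshold at 6 tumours each. Cxcl16 with Cxcr6 turned positive within week 12 (0.259), without the 2 farthest (0.0084) and as deviations (0.0133); with a library left out it ran from -0.28 to 0.20, and Cxcl16 with Cxcr3 from -0.39 to 0.26. With 3 libraries a group, the intervals given hold the differences compatible with the data and are not limits of detection. A member that was not called may still differ between the groups.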

Other observations

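Active week 18 replicate 1, the tumour with the most Cxcl16, also differed from the other 11 in genes outside the 6 members, picked here after their values were seen. Ifngr2, a chain of the interferon gamma receptor, was at 3305 normalized counts there and at 1305 to 2011 elsewhere. Ccr2, the monocyte chemokine receptor, was at 56.2 there and at 129 to 1710 elsewhere. Its 10 NK and cytotoxic markers summed to 41.6, against 214 to 1612 elsewhere. Ido1, an enzyme induced by interferon gamma, was highest in sedentary week 18 replicate 2 at 1048, the library with the most Cxcl10 (174). It was lowest in sedentary week 18 replicate 1 at 9.6, the library with the least Cxcl10 (36.4). Ido1 and Cxcl10 did not keep the same order in the libraries between. Active week 18 replicate 2 had Cxcl10 at 136 and Ido1 at 57.7, and sedentary week 12 replicate 1 had Cxcl10 at 109 and Ido1 at 96.0. These libraries too were picked after their values were seen, and the relation was not tested.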
